A study of Mus musculus with 2 samples.

Results

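Imprinted genes are transcribed mainly or only from the copy inherited from one parent. With earlier results of these data known, 47 of them were chosen by name and examined in the limb of the mouse embryo. Each was found by its Ensembl gene identifier in the deposited gene and transcript tables. Of the 47 genes, 46 had a row among the 43346 Ensembl rows, and the long noncoding RNA Peg13 was not analysed here. The series measured total RNA longer than 200 nt from limb tissue of B6NCrl embryos of both sexes, pooled, at embryonic day 10.5. It has 1 group of 2 biological replicates, with 69 embryos in the pool of replicate 1 and 51 in that of replicate 2, and 10 ng of RNA entered each library. With 1 group, the comparisons were those between genes, between transcripts of a gene, and between the libraries. B6NCrl is an inbred strain, so the reads hold no information on which parental copy they came from. The expressed alleles named here are textbook knowledge of the mouse, not measurements.

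Imprinting rests on DNA methylation that is laid down in one germ line only and kept through later cell divisions by factors such as the zinc finger protein ZFP57 and its partner TRIM28. The marked regions control clusters of neighbouring genes, often with a noncoding RNA on one parental chromosome and protein-coding genes on the other. Many paternally expressed genes promote growth of the embryo, and several maternally expressed genes restrain it. By the allele known to be expressed, 23 of the 46 measured genes were grouped as paternal and 12 as maternal, and 11 as genes whose imprinting depends on the tissue or on the transcript. They fell into 20 clusters, of which 10 had at least 2 measured genes.

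The libraries held 38932221 and 42465744 expected counts over Ensembl genes in replicates 1 and 2. Values are in TPM (a level per unit of transcript length, scaled to a fixed total in each library), and a value with ± is the mean and SD of the 2 libraries (n = 2). Limb mesenchyme markers were all expressed (10 of 10), as were those of surface ectoderm (8 of 8), muscle precursors (6 of 6), endothelium (6 of 6) and red blood cells (6 of 6). None of 8 trophoblast and yolk sac markers reached 1 TPM in both libraries, their summed level was 1.34 and 1.23 TPM, and the placental genes Tpbpa, Prl3d1 and Gcm1 were at 0. None of 6 neural tube markers reached 1 TPM, with sums of 0.43 and 0.30 TPM. In bulk tissue, fewer cells of a type and less RNA per cell cannot be told apart.

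The start regions of 5 genes are shown first, because imprinting of these genes belongs to particular starts, and the shares given further on differ between them. Each sequence is a RefSeq window (GRCm38.p6) of 250 bases before to 50 bases after an annotated start, written 5′ to 3′ on the gene's strand, in lower case, with capitals marking the hexamer TGCCGC or its reverse complement GCGGCA. This hexamer is the sequence that ZFP57 is known to bind when it is methylated. Grb10 has an upstream start known for maternal expression in most tissues, and the paternal copy is known to use downstream starts in brain. Whether the downstream start shown is one of these was not tested. Mest has a start known for paternal expression and another upstream of it. Gnas has, in this order, the start of the maternal transcript Nesp, the paternal exon 1A and the start of Gs-alpha. For Plagl1 and Peg3 a single window is shown, and the Peg3 start faces that of Usp29 on the other strand, with 147 nt between the annotated gene starts.
Grb10 upstream start, chr11:12037371-12037670, minus strand: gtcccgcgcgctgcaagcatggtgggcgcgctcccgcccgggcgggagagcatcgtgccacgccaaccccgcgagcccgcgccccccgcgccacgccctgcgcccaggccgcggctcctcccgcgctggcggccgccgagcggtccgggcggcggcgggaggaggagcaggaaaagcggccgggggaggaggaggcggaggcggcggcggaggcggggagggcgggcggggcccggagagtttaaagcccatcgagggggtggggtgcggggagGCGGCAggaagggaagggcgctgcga
Grb10 downstream start, chr11:12027922-12028221, minus strand: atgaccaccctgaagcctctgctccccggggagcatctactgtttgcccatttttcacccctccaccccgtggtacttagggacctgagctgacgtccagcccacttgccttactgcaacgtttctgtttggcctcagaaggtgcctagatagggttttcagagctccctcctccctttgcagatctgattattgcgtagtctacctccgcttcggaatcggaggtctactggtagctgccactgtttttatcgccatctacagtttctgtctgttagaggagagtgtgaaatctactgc
Mest main start, chr6:30737800-30738099, plus strand: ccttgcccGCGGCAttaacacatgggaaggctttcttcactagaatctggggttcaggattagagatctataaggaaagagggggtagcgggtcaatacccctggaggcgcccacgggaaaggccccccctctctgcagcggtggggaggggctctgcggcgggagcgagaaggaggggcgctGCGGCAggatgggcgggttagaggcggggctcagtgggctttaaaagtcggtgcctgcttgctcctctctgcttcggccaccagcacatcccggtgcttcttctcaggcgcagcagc
Mest upstream start, chr6:30733256-30733555, plus strand: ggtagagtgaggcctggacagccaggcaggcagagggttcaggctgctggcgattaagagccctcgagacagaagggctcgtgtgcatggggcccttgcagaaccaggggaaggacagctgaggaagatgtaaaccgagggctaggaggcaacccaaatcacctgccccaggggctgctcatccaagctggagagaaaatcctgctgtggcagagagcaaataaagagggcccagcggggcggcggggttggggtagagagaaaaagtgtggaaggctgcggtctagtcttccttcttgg
Gnas Nesp start, chr2:174284070-174284369, plus strand: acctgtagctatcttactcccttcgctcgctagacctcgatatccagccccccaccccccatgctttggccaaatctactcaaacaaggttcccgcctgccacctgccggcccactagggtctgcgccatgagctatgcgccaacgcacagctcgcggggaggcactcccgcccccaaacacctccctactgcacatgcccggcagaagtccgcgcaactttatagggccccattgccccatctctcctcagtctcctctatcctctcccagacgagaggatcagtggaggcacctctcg
Gnas exon 1A, chr2:174327499-174327798, plus strand: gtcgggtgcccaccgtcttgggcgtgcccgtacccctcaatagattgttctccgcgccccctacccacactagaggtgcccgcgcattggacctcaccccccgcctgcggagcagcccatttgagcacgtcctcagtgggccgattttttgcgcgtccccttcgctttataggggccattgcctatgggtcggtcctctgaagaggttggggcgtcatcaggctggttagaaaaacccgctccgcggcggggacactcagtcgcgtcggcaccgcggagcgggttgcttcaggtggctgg
Gnas Gs-alpha start, chr2:174329756-174330055, plus strand: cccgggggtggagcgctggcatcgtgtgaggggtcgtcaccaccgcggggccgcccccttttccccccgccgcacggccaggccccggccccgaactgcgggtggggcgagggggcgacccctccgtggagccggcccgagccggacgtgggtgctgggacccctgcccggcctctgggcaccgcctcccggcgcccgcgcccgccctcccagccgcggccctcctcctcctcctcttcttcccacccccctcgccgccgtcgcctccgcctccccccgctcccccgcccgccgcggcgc
Plagl1 start, chr10:13090582-13090881, plus strand: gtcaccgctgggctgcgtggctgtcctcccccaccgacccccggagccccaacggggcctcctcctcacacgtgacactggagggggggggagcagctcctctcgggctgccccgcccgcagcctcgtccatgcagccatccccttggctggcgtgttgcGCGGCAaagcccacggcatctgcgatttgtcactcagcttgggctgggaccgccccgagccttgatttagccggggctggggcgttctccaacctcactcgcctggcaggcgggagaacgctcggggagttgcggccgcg
Peg3 start, chr7:6730370-6730669, minus strand: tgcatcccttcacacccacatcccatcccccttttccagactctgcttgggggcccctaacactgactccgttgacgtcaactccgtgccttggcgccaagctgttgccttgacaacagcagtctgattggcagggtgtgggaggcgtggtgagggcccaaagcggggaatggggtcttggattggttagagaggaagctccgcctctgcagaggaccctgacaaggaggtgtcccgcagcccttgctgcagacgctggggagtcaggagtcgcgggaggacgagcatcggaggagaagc

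The windows differed in their content of CG, the dinucleotide that carries DNA methylation. The upstream Grb10 window held 45 CG and the downstream one 9. In Mest the main window held 17 and the upstream one 8. The Gnas windows held 16 (Nesp), 27 (exon 1A) and 40 (Gs-alpha), and those of Plagl1 and Peg3 held 26 and 13. Across the 32851 windows of 27025 genes in the same table the median was 7 CG, and across the 58 windows of the 38 imprinted genes with an entry it was 15.5. The hexamer, searched on both strands, was present in 11 of these 58 windows (19%) and in 3813 of all 32851 windows (11.6%). It occurred 2 times in the main Mest window and once each in the upstream Grb10 window and the Plagl1 window. The 11 windows include those of the Mest starts at 30738050 and 30738053, which overlap and hold the same matches. The hexamer contains CG, and windows of like CG content were not compared. All matches are of letters only, and no binding or methylation was measured.

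Imprinted genes were mostly expressed in the limb. A gene was counted as expressed where each library gave it at least 1 TPM. This was so for 38 of 46 genes (82.6%), where 31.5% of all 42462 named genes and 55.2% of the 21474 protein-coding genes were. Among the 40 protein-coding imprinted genes, 32 were expressed. A level of 100 TPM or more in both libraries was reached by 11 of 46 (23.9%), against 3.96% of all named genes and 12.6% of all expressed genes. The median level of the 46 genes was 22.2 TPM in replicate 1 and 27.2 in replicate 2. For expressed protein-coding genes it was 19.9 and 22.4, and 23 of the 46 imprinted genes lay above that median. All 46 genes together took 1.45% and 1.42% of gene counts in replicates 1 and 2.

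**Figure D1:**
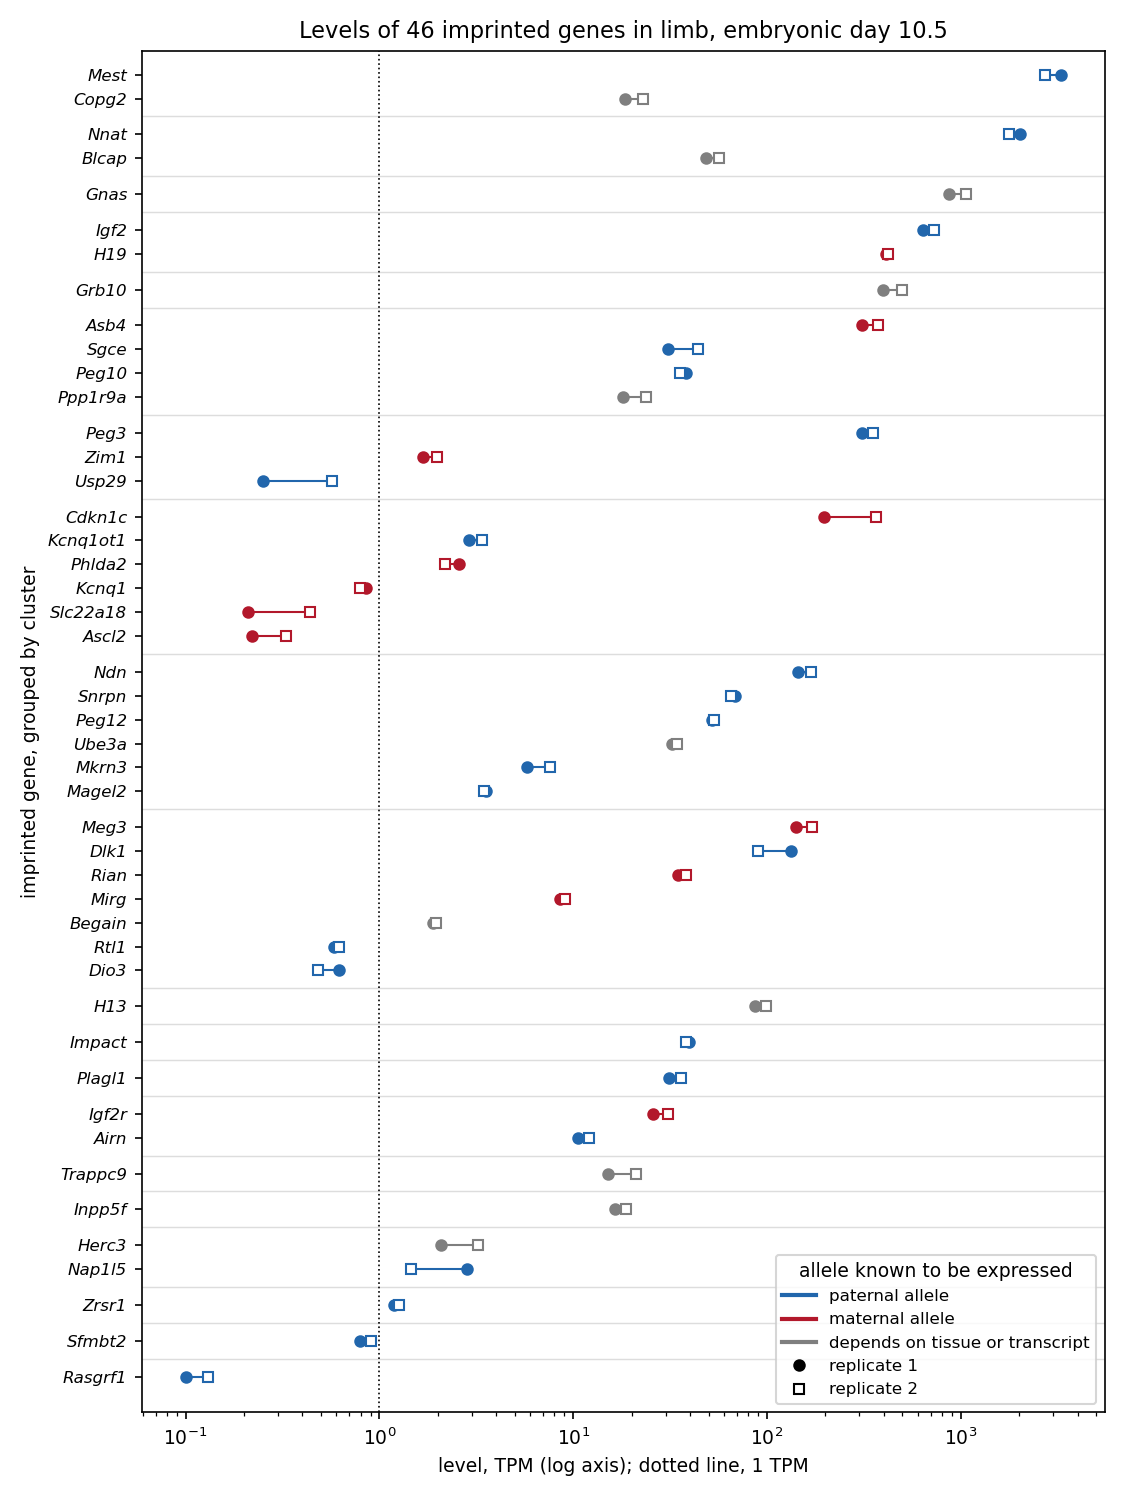
Level of each of the 46 imprinted genes in TPM on a log axis, grouped by cluster, with the filled circle for replicate 1 and the open square for replicate 2. Colour gives the allele known to be expressed. Mest and Nnat lie farthest right, clusters such as Kcnq1 span from Cdkn1c at 281 TPM to Ascl2 at 0.275 TPM, and 8 genes lie below 1 TPM.

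The paternally expressed genes Mest and Nnat stood apart at the top. Mest, an enzyme of the hydrolase family named for its expression in mesoderm (ENSMUSG00000051855.11, chromosome 6, 30723547 to 30748465), was at 3286 TPM in replicate 1 and 2711 in replicate 2 and ranked 21 among all genes by mean TPM. Nnat, a small membrane protein best known from brain (ENSMUSG00000067786.12, chromosome 2, 157560078 to 157562522), was at 2026 and 1774 TPM. Together they made up 56.1% and 47.8% of the summed TPM of all 46 genes. Both were lower in replicate 2 than in replicate 1.

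Gnas, Igf2, Grb10 and H19 came next. Gnas, which encodes the G protein subunit Gs-alpha, was at 868 and 1063 TPM, and Igf2, the fetal insulin-like growth factor, at 638 and 727. Grb10, an adaptor protein that restrains insulin and IGF receptor signalling, was at 395 and 498 TPM, and H19, a noncoding RNA beside Igf2, at 409 and 420. In this tier the deposited intervals, which cover estimation error only, placed Gnas above Igf2 and Igf2 above Grb10 in both libraries. Grb10 and H19 were not separated in the same direction. Short annotated transcripts took much of the Igf2 TPM, so the place of Igf2 depends on their lengths.

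Asb4, Peg3 and Cdkn1c followed and were not ordered among neighbours. Asb4, an ankyrin repeat protein with a SOCS box, was at 309 and 376 TPM, and Peg3, a zinc finger protein, at 311 and 352. Cdkn1c, the cyclin-dependent kinase inhibitor p57, was at 196 and 367 TPM, the widest spread of the 11 genes above 100 TPM relative to its mean, 281 ± 121. Next came Ndn, a MAGE family protein, at 145 and 169 TPM, and the noncoding RNA Meg3 at 141 and 170. Dlk1, a membrane protein related to Notch ligands, was at 133 and 89.4 TPM, so it passed 100 TPM in replicate 1 only.

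H13 and the genes below it were under 100 TPM in both libraries. H13, the signal peptide peptidase, was at 93.0 ± 8.52 TPM, Snrpn, a splicing protein, at 66.8 ± 2.72, and Peg12, related to the Frat regulators of GSK3, at 52.5 ± 1.15. Blcap (52.3 ± 5.52), the translation regulator Impact (38.9 ± 0.863), the sarcoglycan Sgce (37.5 ± 9.14) and the retrotransposon-derived gene Peg10 (37.0 ± 2.01) followed. The transcription factor Plagl1 was at 33.5 ± 3.39 TPM, the ubiquitin ligase Ube3a at 33.3 ± 1.20 and Igf2r, the receptor that clears IGF2 from the cell surface, at 28.3 ± 3.44. Between 17.6 and 20.9 TPM lay Ppp1r9a, Copg2, Trappc9 and Inpp5f, all genes whose imprinting depends on tissue or transcript.

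At the low end, 8 genes stayed under 1 TPM in both libraries. Several of them are known for roles in placenta or brain. Rtl1, a retrotransposon-derived gene needed in the placenta, was at 0.580 and 0.620 TPM (96 and 108 counts), and Ascl2, a transcription factor of trophoblast, at 0.220 and 0.330 (9 and 14 counts). Sfmbt2, a Polycomb-related gene of extraembryonic tissue, was at 0.790 and 0.910 TPM, and Rasgrf1, a Ras exchange factor of brain, at 0.10 and 0.13 with 2 and 15 counts. Placental genes were not uniformly low, since Peg10 was at 37.0 ± 2.01 TPM, while Phlda2, which limits placental growth, was at 2.57 and 2.19 TPM (45 and 40 counts).

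The other genes under 1 TPM were the thyroid hormone-inactivating deiodinase Dio3 (0.620 and 0.480 TPM, 32 and 22 counts), the deubiquitinase gene Usp29 (0.25 and 0.57, 17 and 40 counts), Slc22a18 (0.210 and 0.440, 8 and 17 counts) and the potassium channel gene Kcnq1 (0.85 and 0.79). The row of Usp29 covers only a transcript whose first base is far inside the annotated gene, so a start beside Peg3 is not measured by it. For Kcnq1 the posterior mean TPM, a second estimate in the tables, was 2.18, and for Slc22a18 it was 0.670, against means of 0.820 and 0.325 in the main estimate. Of the other genes under 1 TPM, Sfmbt2 had a posterior mean of 1.275 TPM, above the 1 TPM limit, and Rasgrf1 one of 0.195, while the posterior mean was 0.983 times the main estimate for Rtl1, 1.02 times for Usp29, 1.09 times for Dio3 and 1.16 times for Ascl2.

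Across all 46 genes ranked by mean TPM, 14 of 45 neighbouring pairs were separated by non-overlapping intervals in both libraries and 31 were not. The median of the paternal group was 31.0 and 35.6 TPM in replicates 1 and 2, that of the maternal group 17.2 and 19.9, and that of the tissue- or transcript-dependent group 18.5 and 23.7. The order of the first pair of groups depends on where the dependent genes are put. With those genes counted under the allele most often reported for them, the paternal median was 23.8 and 27.1 TPM and the maternal one 25.9 and 30.7.

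Within clusters, neighbours often differed in level by a large factor. A pair was called ordered where the same gene was higher in each library and its interval lay clear of that of the other gene. This held for 56 of the 65 pairs of imprinted genes that share a cluster, and for 66.5% of all pairs of genes adjacent on a chromosome. Imprinted genes of a cluster are neighbours but not always adjacent, and the same gene can enter several pairs. The adjacent pairs were taken at any level. Of all named genes 31.5% were expressed, against 82.6% of the imprinted genes. The shares are therefore set side by side as a description only, and the part of expression in their difference was not tested.

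In the Dlk1-Dio3 cluster on chromosome 12, the maternally expressed noncoding RNAs formed a series of falling level along the chromosome. Meg3 exceeded Rian 4.25-fold, and Rian, at 34.7 and 38.3 TPM, exceeded Mirg 4.13-fold. Transcripts at the first annotated start took only 2.94% and 1.15% of Rian TPM and 6.09% and 6.68% of Mirg TPM. Most TPM of both genes sat in annotated transcripts that begin farther inside, so these ratios depend on the lengths of those transcripts. In the annotation Rian holds 13 snoRNA and 4 miRNA genes on its own strand, and Mirg holds 14 miRNA genes. The paternally expressed coding genes of the cluster were far apart from each other, with Dlk1 200-fold above Dio3 and 182-fold above Rtl1. Meg3 and Dlk1, the leading gene of each parental chromosome, were not ordered, with ratios of 1.06 in replicate 1 and 1.90 in replicate 2. Begain, a gene of neuronal synapses at the edge of the cluster, was at 1.90 and 1.97 TPM.

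Rtl1 lies opposite to miRNA genes of the maternal chromosome, and several of these are known to pair with its RNA along their whole length and direct its cleavage. The mature sequences that fall inside the Rtl1 exon on the other strand are shown with those inside Mest and H19, because they name the small RNAs these genes carry or face. Sequences are from RefSeq (GRCm38.p6), 5′ to 3′, with the seed (bases 2 to 8) in capitals, and 1 arm is shown for each miRNA. Mature miRNAs are shorter than the RNA kept for these libraries, so they were not measured. No pair of these 8 miRNAs shares a seed.
miR-431-5p, opposite Rtl1: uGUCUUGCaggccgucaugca
miR-433-3p, opposite Rtl1: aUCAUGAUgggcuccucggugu
miR-127-3p, opposite Rtl1: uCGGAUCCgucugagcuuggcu
miR-434-3p, opposite Rtl1: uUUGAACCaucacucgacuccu
miR-432, opposite Rtl1: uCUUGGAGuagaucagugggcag
miR-136-5p, opposite Rtl1: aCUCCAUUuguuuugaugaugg
miR-335-5p, in an intron of Mest: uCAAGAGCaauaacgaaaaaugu
miR-675-5p, in an exon of H19: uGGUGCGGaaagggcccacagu

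The RNAs in this set that carry or face miRNAs ranged over nearly the whole scale. Mest, which carries miR-335 in an intron, was at 2999 ± 406 TPM and H19, which carries miR-675 in an exon, at 414 ± 7.57. Rtl1, which faces the miRNAs marked opposite to it and is not their host, was at 0.60 ± 0.0283 TPM. Sfmbt2, whose locus holds 119 annotated miRNA genes on its own strand, was at 0.85 ± 0.0849 TPM.

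In the Kcnq1 cluster on chromosome 7, Cdkn1c exceeded each of the 5 other genes, from 85.4-fold over Kcnq1ot1 to 995-fold over Ascl2. Kcnq1ot1, the paternal noncoding RNA that silences the cluster on its own chromosome, was at 2.91 and 3.39 TPM. Its row is a single transcript with 6550 and 7927 counts, so a low level per length stands beside a count of the same order as that of Ndn (6001 and 7291). Of the 15 pairs in the cluster, 10 were ordered. The other 5, all without Cdkn1c, were Kcnq1ot1 with Kcnq1, Kcnq1ot1 with Phlda2, Phlda2 with Kcnq1, Kcnq1 with Slc22a18, and Slc22a18 with Ascl2.

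In the Snrpn cluster, also on chromosome 7, all 15 pairs were ordered. Ndn led, at 2.34-fold above Snrpn, followed by Peg12, Ube3a, Mkrn3 and Magel2. Mkrn3, a ring finger protein, was at 5.76 and 7.63 TPM, and Magel2, a MAGE family protein like Ndn, at 3.57 and 3.46, so Ndn exceeded Magel2 44.5-fold although the 2 are close neighbours and both paternally expressed. Snrpn shares its start region and reads with Snurf on the same strand, whose row was at 47.4 and 37.7 TPM from 148 and 123 counts, so the division between these rows is uncertain. Ube3a is known for maternal expression in neurons and expression from both copies elsewhere. Here neuron markers summed to 13.1 and 13.2 TPM, with 3 of 6 expressed.

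In the Peg10 cluster on chromosome 6, Asb4 exceeded Peg10 9.22-fold and Sgce 9.24-fold. Sgce and Peg10 begin 99 nt apart on opposite strands and were not ordered, at a mean ratio of 0.998, with Sgce at 31.0 and 43.9 TPM and Peg10 at 38.4 and 35.6. Ppp1r9a, a scaffold protein of synapses, was the lowest of the 4 at 18.0 and 23.7 TPM. In the Peg3 cluster all 3 pairs were ordered. Peg3 exceeded the maternal zinc finger gene Zim1, at 1.67 and 1.98 TPM, 182-fold, and exceeded the measured row of Usp29 876-fold.

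Igf2 and H19 use shared enhancers on opposite parental chromosomes. Igf2 exceeded H19 1.56-fold in replicate 1 and 1.73-fold in replicate 2. Much of the Igf2 TPM sat in annotated transcripts of 958 and 650 nt, so this ratio depends on their lengths. Igf2r exceeded Airn, the paternal antisense RNA that silences Igf2r on its own chromosome, 2.49-fold. Airn was at 10.6 and 12.1 TPM from 263 and 291 counts. The mean transcript length in the Airn row was 1034 and 962 nt, so its level depends on which transcripts are annotated. Mest exceeded Copg2, a coat protein gene that overlaps its end on the other strand, 145-fold. In the annotation 27 of the 47 genes overlap a gene on the opposite strand. Whether the counting used strand is not given in the sources used here, so reads of such partners cannot be told apart with certainty.

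**Figure D2:**
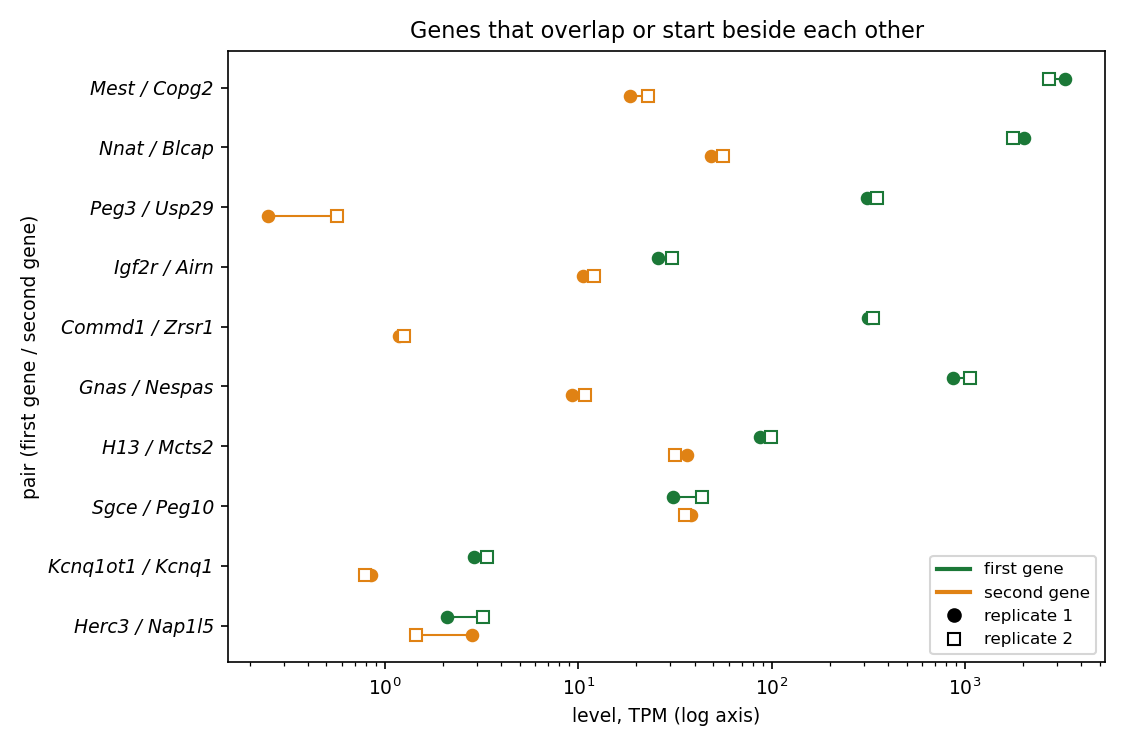
Levels in TPM on a log axis of imprinted genes and the genes that overlap them or start beside them, with the first gene of each pair in green and the second in orange. Circles are replicate 1 and squares replicate 2. The pairs range from Peg3 over the measured row of Usp29 at 876-fold to Sgce and Peg10, whose levels cross between the libraries. Those of Herc3 and Nap1l5 cross as well.

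Several imprinted genes lie as guests inside an intron of a host gene, and host and guest differed in level in both directions. Nnat, inside Blcap, exceeded its host 36.4-fold. Nap1l5, a nucleosome assembly protein gene inside Herc3, was at 2.82 and 1.46 TPM, and Herc3, a ubiquitin ligase gene, at 2.09 and 3.22, and these were not ordered. Zrsr1, a splicing factor gene inside Commd1, was at 1.19 and 1.26 TPM, far below the 314 and 335 TPM of Commd1. Mcts2, inside H13, was at 36.5 and 31.7 TPM, below H13 at 87.0 and 99.0.

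For hosts such as H13, transcripts that end before the guest and transcripts that read past it are known to come from different parental copies. In H13, transcripts reading past Mcts2 took 82.9% and 81.8% of the gene's TPM in replicates 1 and 2, and those ending before it 16.6% and 17.9%. In Blcap, transcripts past Nnat took 92.6% and 90.1%. In Trappc9, a trafficking complex gene that hosts Peg13, transcripts past the guest took 96.1% and 97.9%. Herc3 was divided, with 47.8% and 57.8% past Nap1l5 and 38.8% and 42.2% ending before it, at total levels of 2.09 and 3.22 TPM. The remaining Herc3 transcripts took 13.4% in replicate 1 and 0 in replicate 2. The Herc3 shares rest on 145 and 281 counts for the whole gene.

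Transcript starts were compared next, since imprinting is specific to a start in several of these genes. Of the 34 genes with several annotated transcripts, 31 had the same leading transcript in both libraries. The exceptions were H19, Dio3 and Rasgrf1. No share over all genes stands beside this count, so it is a description only. Transcripts whose first bases lay within 500 nt of each other were grouped as 1 start, and the shares below are of the gene's TPM.

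Grb10 used its upstream start, whose window with 45 CG is printed above, for 93.6% and 94.0% of its TPM in replicates 1 and 2. The downstream start took 5.09% and 4.70%, which are 20.1 and 23.4 TPM. Mest used its main start for 98.1% and 98.4%, and the upstream start for 0.0463% and 0.0642%. In Gnas, the Gs-alpha start took 96.7% and 96.9%, exon 1A 1.82% and 1.66%, and the Nesp start 0.509% and 0.337%. Starts in the region of XL-alpha-s, the paternal large form, took 0.149% and 0.0414%. Nespas, the antisense RNA of the locus, was at 9.27 and 10.8 TPM, above the 4.42 and 3.58 TPM of the Nesp start.

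Plagl1 took 98.7% and 98.6% of its TPM from the start shown above, and its annotated upstream start was at 0 in both libraries. All Peg3 TPM came from 1 start. Snrpn came from its start at 60005199 entirely, with the far upstream start at 60140225 listed at 0. Meg3 took 95% and 96.0% of its TPM from its first start, but only 75.6% and 78.9% of its counts. Its start at 109545398 held 23.6% and 20.2% of counts and 2.98% and 2.47% of TPM. In Asb4 the leading start took 86.5% and 87.0%, and a start farther inside the gene the other 13.5% and 13%.

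Inpp5f, a phosphoinositide phosphatase gene, was led by a start deep inside the gene. A transcript with its first base at position 128687546 of chromosome 7, took 73.1% and 74.4% of the TPM, and the upstream start at 128611365 took 22.8% and 24.5%. A paternally expressed transcript is known to begin inside Inpp5f, and whether this is that transcript was not tested.

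Igf2 was the least settled. Short annotated fragments took much of its TPM, with the one that begins at 142653030 leading at 43.4% and 40.6%, but only 28.5% and 26.2% of its counts. The start at 142666816, farthest upstream, took 32.8% and 34.6% of TPM and 13.8% and 14.3% of counts. The transcript that begins at 142659489 took 9.86% and 10.0% of TPM and 34.8% and 34.9% of counts. Shares of TPM and of counts thus rank the Igf2 transcripts differently, and they are not a measure of promoter use for this gene.

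**Figure D3:**
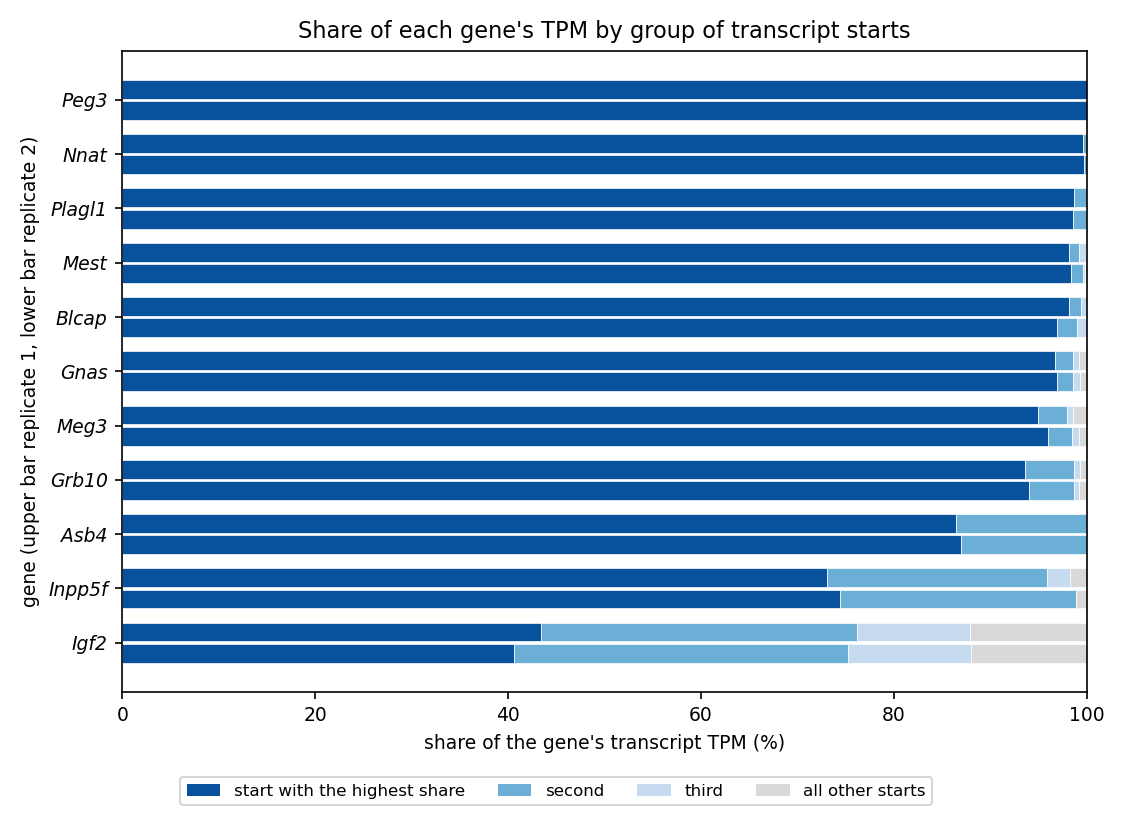
Share of each gene's transcript TPM, in percent, taken by the start group with the highest share, the second, the third and all others, with the upper bar for replicate 1 and the lower for replicate 2. From Peg3 at 100% down to Grb10 at 93.6% and 94.0% a single start dominates the TPM. Asb4 and Inpp5f are divided, and the largest share in Igf2 is 43.4% and 40.6%.

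The libraries were then compared with each other. Differences are log2 values, replicate 2 minus replicate 1, from counts scaled by TMM, and the bracketed range is a 95% exact binomial interval that covers counting error only. The smallest p of an exact sign-flip test on 2 libraries is 0.5. Differences are therefore given without p-values, and pool, library and any batch cannot be told apart. At a mean count of 100 or more, 38 of the 46 imprinted genes were compared among 12195 genes. Their median difference was 0.05 (SD 0.32 over genes), beside -0.01 (SD 0.33) for all genes.

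Differences between the pools were mostly under 2-fold. The interval lay above 0 for 17 of 38 genes and below 0 for 10, where 29.3% and 33.7% of all genes did so, and it held 0 for 11. A 2-fold difference was reached upward by 0 of 38 genes (1.29% of all genes) and downward by 1 (0.336% of all genes). That gene was Nap1l5 at -1.09 (-1.52 to -0.67), on 135 and 73 counts. With spike-in counts as the scale it was at -0.83, with deposited TPM at -0.95 and with posterior mean TPM at -0.94, under the 2-fold limit in each case.

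Cdkn1c had the largest upward difference, 0.76 (0.72 to 0.80), on 9411 and 18357 counts, and 0.76 to 1.02 over the 6 scalings tried. Kcnq1ot1, in the same cluster, was at 0.07 (0.02 to 0.12). Herc3 was at 0.75 (0.46 to 1.05) on 145 and 281 counts, opposite in direction to its guest Nap1l5. Trappc9 was at 0.33 (0.24 to 0.43) and Sgce at 0.29 (0.18 to 0.39), while Peg10, which starts beside Sgce, was at -0.10 (-0.16 to -0.05).

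Dlk1 had the second largest downward difference, -0.67 (-0.73 to -0.61), on 4995 and 3619 counts. Mest was at -0.41 (-0.42 to -0.40) and Nnat at -0.34 (-0.35 to -0.32), and these 3 were lower in replicate 2 under all 6 scalings. In the same cluster as Dlk1, Meg3 was at 0.08 (0.03 to 0.12) and Rian at 0.05 (-0.04 to 0.14). Igf2 was at 0.07 (0.04 to 0.09), and H19 at -0.09 (-0.12 to -0.06), but H19 was above 0 with spike-in counts (0.17), deposited TPM (0.04) and posterior mean TPM (0.04).

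Grouped by allele, 7 of 19 paternal genes were higher in replicate 2 and 12 lower, 7 of 8 maternal genes were higher and 1 lower, and 9 of 11 dependent genes were higher and 2 lower, beside 5934 higher and 6261 lower among all genes. For paternal genes this majority flipped to 10 higher and 9 lower with total gene counts, to 15 higher and 4 lower with spike-in counts, and to 11 higher and 8 lower with either TPM. Those scalings placed the median of all genes at 0.07 (total gene counts), 0.25 (spike-in counts) and 0.13 (either TPM). Relative to that median, the median of the 38 imprinted genes was higher by 0.06. This value is the same by construction under the 4 scalings of counts, which shift all genes alike, and it was also 0.06 with either TPM.

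Marker lists were compared between the pools in the same way, beside intervals above 0 for 29.3% and below 0 for 33.7% of all genes. Muscle precursor markers summed to 40.6 TPM in replicate 1 and 78.1 in replicate 2, with 4 of 6 higher and 2 lower by the interval. Red blood cell markers summed to 11697 and 9527 TPM, with 6 of 6 lower, and surface ectoderm markers to 248 and 216, with 1 of 8 higher and 6 lower. Limb mesenchyme markers summed to 845 and 1004 TPM, with 5 higher and 5 lower. Their part in the differences of Cdkn1c, Dlk1, Mest and Nnat was not tested.

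**Figure D4:**
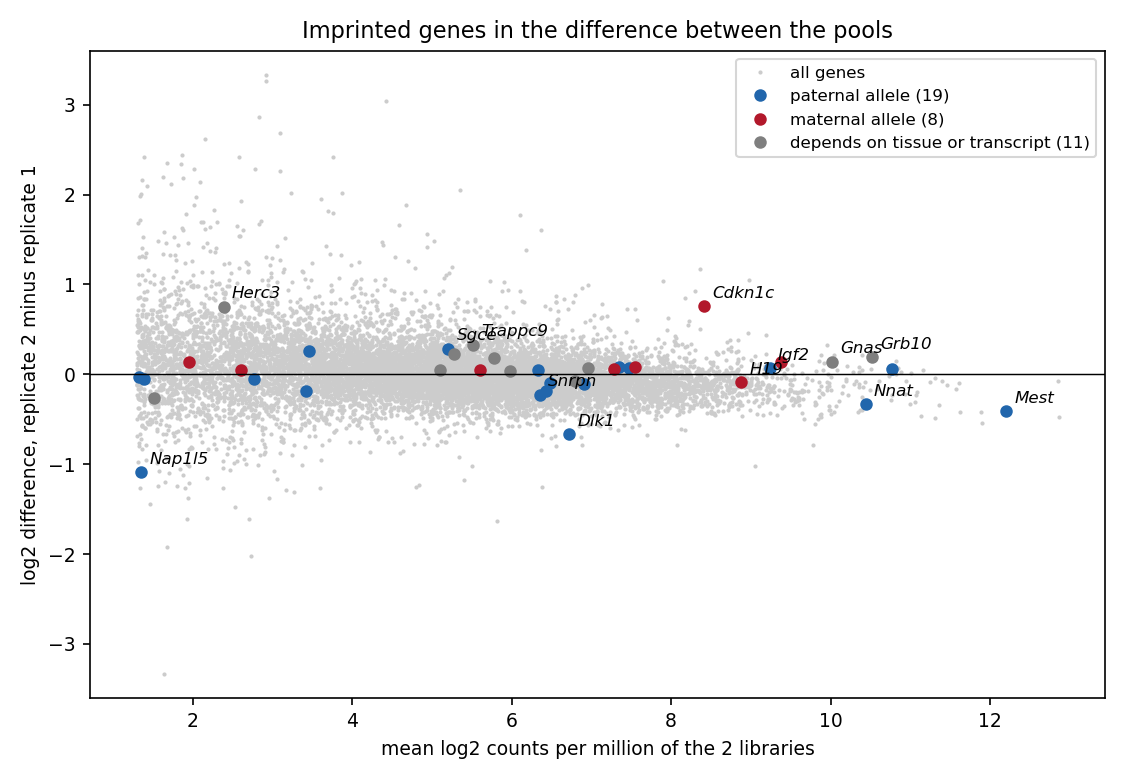
Log2 difference between the pools (replicate 2 minus replicate 1, TMM scaling) against mean log2 CPM (counts scaled to library size), for genes whose counts averaged at least 100. Grey points are all genes and coloured points the 38 imprinted genes by known allele. Cdkn1c at 0.76 and Dlk1 at -0.67 stand away from most genes with like counts, and Mest at -0.41 is among the most abundant.

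The factors that keep imprints were expressed in the same tissue. Of 17 such genes, 15 were at 1 TPM or more in both libraries, with a median of 50.2 TPM. The corepressor Trim28 was at 491 and 474 TPM, Uhrf1, which guides methylation to newly copied DNA, at 281 and 265, and the DNA methyltransferase Dnmt3a at 184 and 249. The lowest was Dppa3, a factor of the oocyte and early embryo, at 0.0600 TPM in each library. Zfp57, which was added after its value was seen, was at 58.4 and 77.9 TPM. Between the libraries 7 of 15 genes had an interval above 0 and 5 below, beside 29.3% and 33.7% of all genes.

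The partners of IGF2 were all expressed as well, 12 of 12, with a median of 39.5 TPM. The highest were the IGF-binding proteins Igfbp4, at 745 and 841 TPM, and Igfbp2, at 165 and 222. Next came the RNA-binding protein Igf2bp2 at 169 in both libraries, and the other listed IGF-binding proteins were lower. The adaptor Irs1 was lowest at 4.89 and 7.04. Against these, the ligand Igf2 stood at 638 and 727 TPM, its clearing receptor Igf2r at 25.9 and 30.7, and the inhibitor Grb10 at 395 and 498. Between the libraries 9 of 12 partners had an interval above 0 and 3 below, again beside 29.3% and 33.7% of all genes. The widest of these differences, picked after its value was seen, was that of the other ligand, Igf1, at 14.6 and 49.1 TPM and a log2 difference of 1.60 (1.52 to 1.69).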

How the data were processed

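Per the labels' protocols, RNA was extracted with the mirVana method and spike-in RNAs were added. Per the sample text files, the deposited tables rest on mm10 and GENCODE M4, with separate tables for each library. Neither aligner, quantifier nor strand setting is given in the sources used here. The authors deposited expected counts (estimated reads, not always whole), TPM and FPKM per gene and transcript, posterior mean TPM with interval bounds of unstated level, and the percent of a gene's TPM that each transcript takes. TPM is scaled over all rows, spike-ins included. The intervals centre on the posterior mean, so for 9 of the 46 genes the deposited TPM lay above its own interval and for 2 below in at least 1 library.

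From these files, names, coordinates and overlaps were taken from GENCODE M21 (GRCm38) by identifier without version, which named 42462 of 43346 Ensembl rows (98.0%). Of 279 transcripts of the imprinted genes, 274 were placed. Expected counts were rounded for edgeR 4.0.16 (TMM) and DESeq2 1.42.0 (size factors) in R 4.3.3. That step was also run on simulated counts with equally many genes changed up and down, which do not test the choice of scaling. The rest used Python 3.11.15, pandas 2.3.3, scipy 1.17.1, numpy 2.4.6 and, for plots, matplotlib 3.10.9. The binomial intervals cover counting error only and treat reads as independent. Reads carry no molecular identifiers, so copies of the same molecule cannot be told apart and these intervals may be too narrow. The labels call the pools biological replicates.

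The genes and lists were chosen with earlier results of these data known. Any of the 47 genes could be named; of the upkeep, IGF and neighbour lists, the 3 highest and the lowest, and genes overlapping an imprinted gene. Alternatives were other scalings, count filters, TPM limits, estimates and left-out libraries.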

Additional observations from a re-analysis of the deposited data

How the results depend on the processing

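The number of expressed genes was 38 and ranged from 30 (5 TPM or more) to 41 (0.5 TPM or more), with 40 by posterior mean TPM, 36 by FPKM and 38 in either library alone. The ordered pairs were 56 and ranged from 51 with a 2-fold ratio to 60 without replicate 1 and 58 without replicate 2. The median of log2(TPM + 1) was 4.65, between 4.52 and 4.81 in single libraries, and moved to 4.05 with FPKM and to 4.87 for genes averaging at least 10 counts. The median difference between the libraries, 0.05, moved to 0.13 with total gene counts, 0.31 with spike-in counts, 0.19 with deposited TPM and 0.19 with posterior mean TPM. Genes at least 2-fold higher in replicate 2 numbered 0, but 2 with spike-in counts (Cdkn1c and Herc3), 1 at a mean count of 10 or more (Usp29, 17 and 40 counts) and 2 without a count filter. Genes at least 2-fold lower numbered 1, but 0 with spike-in counts, 0 with deposited TPM and 0 with posterior mean TPM. On the log2(TPM + 1) scale, putting dependent genes under their most reported allele moved the paternal median from 5.11 to 4.66 and the maternal one from 4.08 to 4.87. Leading transcripts shared by the libraries were 31, and 29 by posterior mean TPM. Start shares of Grb10, Mest, Gnas, Plagl1, Peg3, Snrpn and Asb4 moved by at most 0.750 percentage points under posterior mean TPM, and those of Inpp5f by 1.66. Levels of 41 genes moved by less than 1 SD with posterior mean TPM and those of 5 by more, namely H19 (406 TPM), Kcnq1 (2.18), Slc22a18 (0.670), Rasgrf1 (0.195) and Sfmbt2 (1.275). The cause was not tested where scaling or estimate changed a value. No paired analysis was possible because there is only 1 group. The difference between libraries and the shared leading transcript need both libraries, so leaving out a library gives no value for them. Depth limits the genes under about 100 counts, such as Ascl2, Slc22a18 and Rasgrf1.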

Other observations

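A list of other imprinted genes and of neighbours of the clusters covered a wide range in the limb. Of its 35 genes, 32 were measured and 22 were at 1 TPM or more in both libraries, with a median of 5.30 TPM. The highest were Commd1 (314 and 335 TPM), the histone chaperone Nap1l4 at the edge of the Kcnq1 cluster (291 and 308) and the tetraspanin Cd81 in the same cluster (223 and 259). The insulin gene Ins2, next to Igf2, and the potassium channel gene Kcnk9, next to Peg13, were at 0 in both libraries. At a mean count of 100 or more, the interval of the log2 difference between the libraries lay above 0 for 4 of 22 genes and below 0 for 8, beside 29.3% and 33.7% of all genes.

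Listed genes in or near the Kcnq1 and Igf2 regions of chromosome 7 ranged widely. Besides Nap1l4 and Cd81, Tssc4 was at 129 and 141 TPM, Osbpl5 at 10.2 and 16.6, Tspan32 at 4.45 and 4.62, and Th at 0.99 and 1.00. In the Igf2r cluster the transporter genes Slc22a3 (0.0300 and 0.0200 TPM) and Slc22a2 (0.0200 and 0 TPM), known as imprinted in placenta, were near 0 beside Igf2r at 25.9 and 30.7 TPM. These genes were picked after their values were seen.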
